A study of Mus musculus with 12 samples.

Results

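The neurotrophins and their receptors were followed through 12 RNA-sequencing libraries labelled as mouse cerebellum, of which 1, library 411 of the DMSO-treated knock-in group, had marker levels that went against that label. They were chosen by name from the 55401 genes in the count tables and are 6 genes: the ligands Bdnf (ENSMUSG00000048482, chromosome 2) and Ntf3 (ENSMUSG00000049107, chromosome 6), the receptor tyrosine kinases Ntrk2 (ENSMUSG00000055254, chromosome 13) and Ntrk3 (ENSMUSG00000059146, chromosome 7), the p75 receptor Ngfr (ENSMUSG00000000120, chromosome 11) and the sorting receptor Sort1 (ENSMUSG00000068747, chromosome 3). All 6 are protein-coding, and all 6 passed the filter on low counts.

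Neurotrophins are secreted proteins that support the survival, growth and synapses of neurons. BDNF, the product of Bdnf, binds TrkB, the kinase receptor encoded by Ntrk2. NT-3, the product of Ntf3, binds mainly TrkC, encoded by Ntrk3. The p75 receptor binds all neurotrophins and also their uncleaved precursors, for which sortilin, encoded by Sort1, acts as a co-receptor. Sortilin also sorts BDNF inside the cell. In the cerebellum these factors act on granule cells and Purkinje cells, and Bdnf has been described as a modifier of spinocerebellar ataxia type 1 (SCA1), the disease these mice model.

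Of the mice, 8 carried a heterozygous knock-in of Atxn1 (154Q/2Q, here Het), in which 1 allele codes for an expanded glutamine tract, and 4 were wild-type (WT). The Het mice received the compound Hit 2 dissolved in DMSO at 25 mg/ml (4 mice) or DMSO alone (4 mice), and the 4 WT mice received DMSO, so all 12 mice were exposed to the solvent. Injections into the peritoneum were given once a day for 5 days from 18 weeks of age, and for 5 more days after 2 days of rest, and the cerebellum was taken at 20 weeks. Hit 2 was not given to WT mice. Each mouse gave 1 library, named here by the animal's number, and the labels name neither the sex of a mouse nor its litter.

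The series concerns compounds selective for expanded CAG repeats, so the longest run of CAG in the transcripts of each member is given here in capitals with 9 bases on each side (GENCODE M21 transcripts, GRCm38).
Bdnf, coding part: ggtgatgctCAGCAGtcaagtgcc
Ntf3, 5′ UTR: ctccttaccCAGCAGctccgcgca
Ntrk2, 3′ UTR: gtcctgaccCAGCAGCAGagaggtggc
Ntrk3, coding part: gtgtcgtggCAGCAGCAGaggctagca
Ngfr, coding part: ctgcacgacCAGCAGacccacaca
Sort1, coding part: tcggtgctaCAGCAGcacgcagag
The longest run was 3 units in Ntrk2 and Ntrk3 and 2 units in the other 4 members. Of 21847 protein-coding genes in that annotation, 80.9% had a run of at least 2 units and 14.9% a run of at least 3, so these short runs were common. Mouse Atxn1 itself, without the knock-in, had a longest run of 2 units.

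Ntf3 was the member whose level differed most between libraries, and its pair of annotated upstream regions, the 250 bases before each RefSeq transcription start (GRCm38.p6, minus strand), is therefore shown, with the E-box CACGTG in capitals.
chr6:126166745-126166994: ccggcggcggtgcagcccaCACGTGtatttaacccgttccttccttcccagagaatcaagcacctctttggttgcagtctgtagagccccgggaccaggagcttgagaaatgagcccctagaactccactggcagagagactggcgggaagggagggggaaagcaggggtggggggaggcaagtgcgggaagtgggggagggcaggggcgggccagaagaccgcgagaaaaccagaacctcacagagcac
chr6:126164961-126165210: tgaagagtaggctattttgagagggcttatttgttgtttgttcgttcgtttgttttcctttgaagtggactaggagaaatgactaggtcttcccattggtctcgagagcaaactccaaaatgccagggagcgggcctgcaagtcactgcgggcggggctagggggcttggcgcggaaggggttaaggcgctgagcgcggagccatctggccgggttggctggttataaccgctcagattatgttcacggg
The E-box, which reads the same on both strands, occurred in the first window and in 6.02% of 32851 upstream windows of the same length. Neither Ntf3 window held CGTCA, the short form of the cAMP response element, on either strand. That motif was found in 1 of the 7 upstream windows of Bdnf and in 17.8% of all windows. These matches describe the sequence only, since binding was not measured.

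Depth ranged from 15855751 to 45265719 reads assigned to genes per library. Levels are reads per gene scaled to equal depth (CPM), with library sizes adjusted by the TMM method of edgeR. Library 411, labelled Het DMSO, stood apart from the other 11: the summed level of 11 granule cell markers was 467 CPM in it and 4030 to 8852 CPM in the others, and that of 10 Purkinje cell markers was 1254 CPM against 3940 to 9154 CPM. Of the granule cell markers 9 of 11, and of the Purkinje cell markers 9 of 10, were lower in library 411 than in any other library. The exceptions were Barhl1 (10.9 CPM in library 411, with a median of 13.5 CPM over the 12 libraries), Rims3 (361 CPM, median 313 CPM) and the Purkinje cell marker Aldoc (617 CPM, median 656 CPM), while Gabra6 of the granule cell list was at 0.606 CPM (median 311 CPM) and Pcp2 of the Purkinje cell list at 0.555 CPM (median 139 CPM). Its sum over 9 markers of midbrain and brainstem neurons was 387 CPM, against 1.84 to 131 CPM in the other 11, and its oligodendrocyte sum was the highest at 6685 CPM, followed by 5577 CPM in library 410. Library 410, of Het Hit 2, was also next to library 411 in the midbrain and brainstem (131 CPM), granule cell (4030 CPM) and Purkinje cell (3940 CPM) sums. The markers that define cerebellar cortex were thus low in a library labelled as cerebellum, and whether its dissection or its label differs from the others was not tested. The Het DMSO values over 4 libraries include it, and the fits of all 6 members are also shown without it. Library 409, also Het DMSO, had the highest granule cell sum (8852 CPM), and it received the lowest quality weight from limma (0.0412), before library 411 (0.118). Xist was above 100 CPM in 2 WT libraries (425 and 426) and in none of the 8 Het libraries, so the WT group alone held both sexes. Because the tissue was sequenced in bulk, other tissue in a sample, fewer cells of a type and less RNA per cell cannot be told apart.

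By their medians per kilobase of exon, the receptors Ntrk2, Ntrk3 and Sort1 stood an order of magnitude above the ligands and Ngfr. The median level over the 12 libraries, in CPM per kilobase of the union of annotated exons, was 32.2 for Ntrk3, 25.2 for Ntrk2, 24.4 for Sort1, 2.24 for Bdnf, 1.97 for Ngfr and 1.84 for Ntf3. The step between the higher and the lower trio held in every library, with Sort1 8.51 to 19.7 times as high as Bdnf in 12 of 12 libraries. Within each trio the order was not settled. Ntrk3 was above Ntrk2 in 9 of 12 libraries by the exon union (30170 and 19292 bases), but in 3 of 12 by the longest protein-coding transcript (19703 and 8744 bases). Ntrk2 was above Sort1 in 7 of 12 libraries by the exon union and in 12 of 12 by the longest transcript. Bdnf was above Ntf3 in 9 of 12 libraries by either length.

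**Figure D1:**
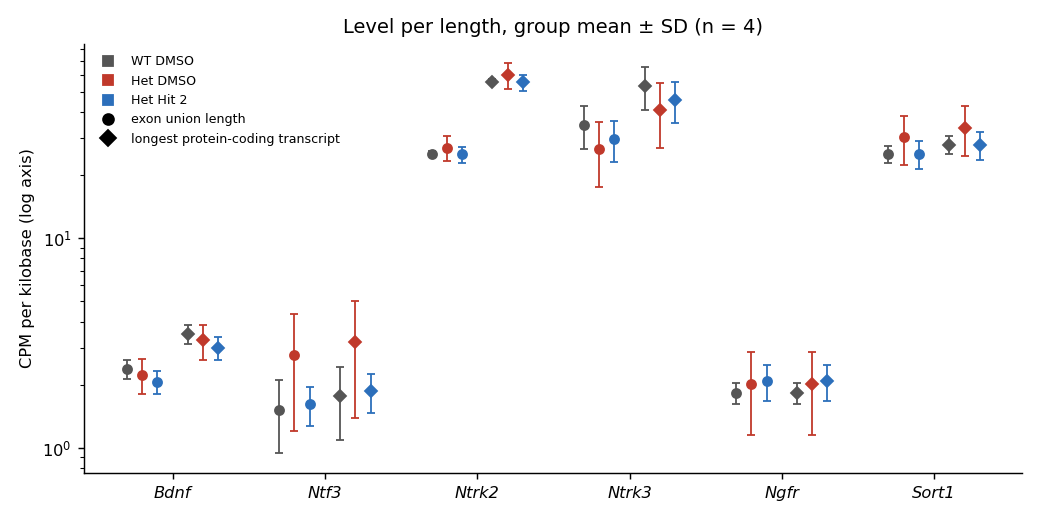
Level of each member in CPM per kilobase on a log axis, as group mean ± SD (n = 4), with length taken as the exon union (circles) or the longest protein-coding transcript (diamonds). Ntrk2, Ntrk3 and Sort1 lie well above Bdnf, Ntf3 and Ngfr in all 3 groups and by both lengths, while the order within each trio depends on the length used.

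No member passed the threshold in any of the 3 comparisons, and the levels of no member separated a pair of groups completely. The comparisons are named here by what differs: the knock-in comparison sets Het DMSO against WT DMSO, the compound comparison Het Hit 2 against Het DMSO, and the remaining-distance comparison Het Hit 2 against WT DMSO. With edgeR's quasi-likelihood test and Benjamini-Hochberg adjustment over 19378 genes, 0 of 6 members were called in the knock-in comparison (0.00516% of all genes were), 0 of 6 in the compound comparison (0% of all genes) and 0 of 6 in the remaining-distance comparison (0.00516% of all genes). At an unadjusted p under 0.05 edgeR likewise gave 0 of 6 members in each, where the shares of all genes were 7.11%, 1.55% and 1.71%. The groups overlapped in all 18 pairings of a member with a comparison, and over all genes the groups did not overlap for 4.39%, 1.03% and 6.32%. DESeq2 also called 0 of 6 members in each comparison, with 0.222%, 0% and 0.124% of all genes called, and limma with quality weights 0 of 6, with 0.506%, 0% and 1.14%. The median log2 fold change of the members was 0.12, -0.11 and -0.01 in the 3 comparisons, against 0.05, -0.04 and 0.02 over all genes, and 4, 2 and 2 of the 6 members had a positive value, as did 55.8%, 44.3% and 55.7% of all genes. The 3 comparisons share their groups, so they are not independent of each other.

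**Figure D2:**
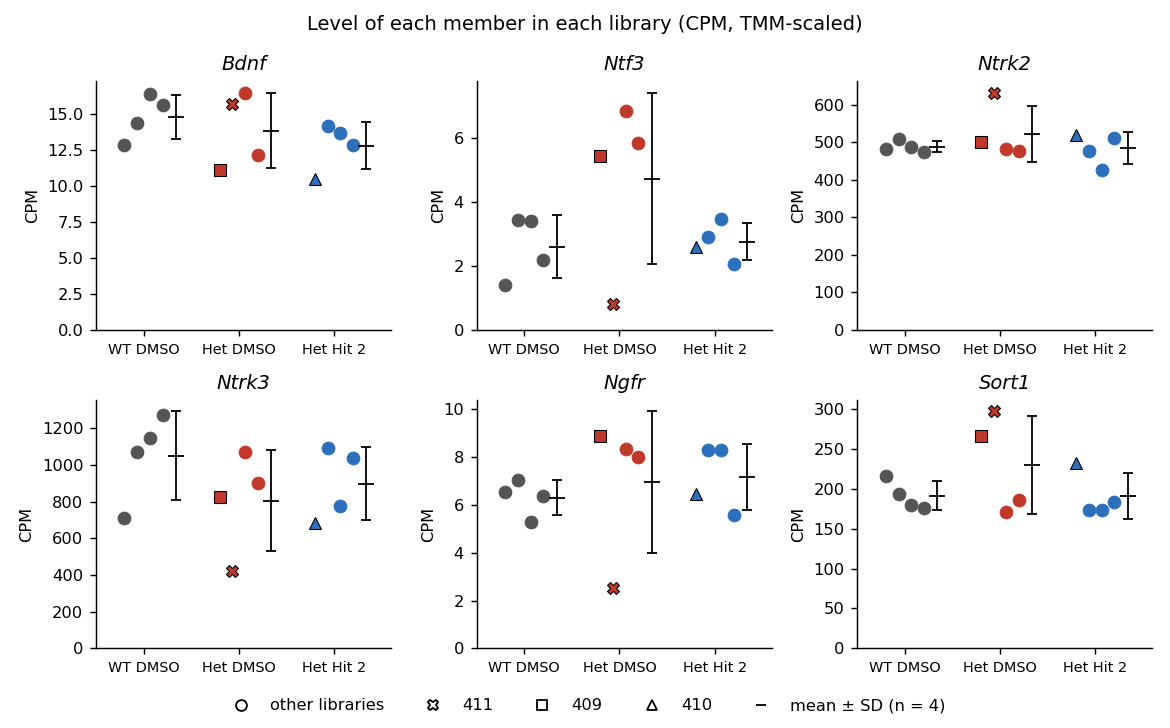
Level of the 6 members in each library in CPM, by group, with the mean ± SD (n = 4) beside the points; crosses, squares and triangles mark libraries 411, 409 and 410. The 3 groups overlap in every panel, and library 411 lies at the edge of the Het DMSO group for Ntf3, Ntrk2, Ntrk3, Ngfr and Sort1.

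Among the ligands, Ntf3 had the widest spread. Its level in WT DMSO was 1.39 CPM in library 413, 3.44 CPM in 425, 3.40 CPM in 426 and 2.19 CPM in 431. In Het DMSO it was 5.44 CPM in library 409, 0.808 CPM in 411, 6.85 CPM in 420 and 5.84 CPM in 429. In Het Hit 2 it was 2.61 CPM in library 410, 2.92 CPM in 421, 3.47 CPM in 422 and 2.06 CPM in 430. Libraries 409, 420 and 429 lay above all WT DMSO and all Het Hit 2 libraries, and library 411 lay below all of them, so that the Het DMSO group contained both the highest and the lowest values of the study. The mean of WT DMSO was 2.61 ± 0.995 CPM, that of Het DMSO 4.73 ± 2.68 CPM and that of Het Hit 2 2.76 ± 0.588 CPM (SD, n = 4 each). Counts were low, at 16 to 221 reads per library, and the 16 reads of library 411 gave an exact Poisson 95% interval of 0.462 to 1.31 CPM, which covers counting error only. The coefficient of variation over the 12 libraries was 54.3%, above that of 88.8% of all genes tested.

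In the knock-in comparison the log2 fold change of Ntf3 was 0.86 (SE 0.51, 95% interval -0.25 to 1.96, edgeR adjusted p 0.616). Permuting the libraries exactly, two-sided, on log2 CPM gave p = 0.457. The compound comparison gave a log2 fold change of -0.77 (SE 0.51, 95% interval -1.88 to 0.33, edgeR adjusted p 0.898, exact permutation p 0.629). The remaining-distance comparison gave 0.08 (SE 0.51, 95% interval -1.02 to 1.19, edgeR adjusted p 1.00). The 95% interval of each of the 3 differences covered 0. Over the 18 pairings of a member with a comparison, the exact permutation p ranged from 0.143 to 1, unadjusted, the smallest that 4 against 4 libraries allow being 0.0286. The same tests were repeated without library 411 and without libraries 409 and 411, and the p-values printed from them are also unadjusted.

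The Ntf3 comparisons with Het DMSO turned on library 411. Without it the Het DMSO mean was 6.04 ± 0.722 CPM (SD, n = 3) and the group overlapped neither of the others. The log2 fold change of the knock-in comparison then became 1.22 (SE 0.30, 95% interval 0.55 to 1.88), which is a fold of 2.32, with an unadjusted p of 0.00184 from edgeR that ranked 69 of 19742 genes. That of the compound comparison became -1.15 (SE 0.30, 95% interval -1.81 to -0.48), with an unadjusted p of 0.00287 from edgeR and rank 17. Neither passed the threshold after adjustment over all genes (edgeR adjusted p 0.514 and 0.630), which 0.0456% and 0% of all genes then did. The exact two-sided permutation p was 0.0286 for each, the smallest that 3 against 4 libraries allow. Over all genes, the groups did not overlap for 7.82% and 3.96% in these comparisons without library 411. The pattern of Ntf3, with the 3 other Het DMSO libraries above all 8 libraries of the other groups, was seen after its values were known, and 107 genes (0.552%) shared it. Library 411 is the one with the lowest summed granule and Purkinje cell markers, and the part of those markers in its low Ntf3 was not tested.

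The values of Ntf3 were also set beside sex and library 409. In the WT group the 2 libraries with Xist had the higher Ntf3 levels (3.44 and 3.40 CPM, against 1.39 and 2.19 CPM), and the part of sex in this was not tested. No Het library had Xist above 100 CPM, so a sex covariate was estimated within the WT group alone. With it, comparisons with WT rested in effect on the 2 WT libraries without Xist, those lower in Ntf3. The knock-in comparison then gave 1.40 on the log2 scale (SE 0.65, edgeR adjusted p 0.853). Leaving out WT libraries 425 and 426 instead also gave 1.40 (SE 0.69, edgeR adjusted p 0.908). With the covariate and without library 411, a fit chosen after the data were seen, the knock-in comparison gave 1.77 (SE 0.31, edgeR adjusted p 0.300). An effect of sex in Het mice was not tested. The remaining-distance comparison of Ntf3, at 0.08 on the log2 scale without the covariate, moved to 0.63 with it (SE 0.63, edgeR adjusted p 1.00) and to 0.62 with it and without library 411 (SE 0.29, 95% interval -0.0090 to 1.25, edgeR unadjusted p 0.0528, adjusted p 1.00). Without libraries 409 and 411 the knock-in comparison gave 1.26 (SE 0.33, edgeR adjusted p 0.351), and the compound comparison gave -1.19 (SE 0.33, edgeR adjusted p 0.983), both close to those without library 411 alone. Over the 25 alternatives the adjusted p lay between 0.197 and 0.908 for the first comparison and between 0.630 and 0.994 for the second, and no alternative changed the sign of either.

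Bdnf was steadier than Ntf3. Its level was 12.9, 14.4, 16.4 and 15.6 CPM in the WT DMSO libraries 413, 425, 426 and 431. The Het DMSO libraries 409, 411, 420 and 429 had 11.1, 15.7, 16.5 and 12.2 CPM. The Het Hit 2 libraries 410, 421, 422 and 430 had 10.5, 14.2, 13.7 and 12.9 CPM. The 3 groups overlapped, and libraries 410 and 409 were the lowest. The group means were 14.8 ± 1.53 CPM in WT DMSO, 13.9 ± 2.63 CPM in Het DMSO and 12.8 ± 1.64 CPM in Het Hit 2 (SD, n = 4 each), and each library held 181 to 627 reads of it. The log2 fold change was -0.10 in the knock-in comparison (SE 0.16, edgeR adjusted p 0.816, 95% interval -0.46 to 0.26) and -0.11 in the compound comparison (SE 0.17, edgeR adjusted p 0.898, 95% interval -0.47 to 0.25). In the remaining-distance comparison it was -0.21 (SE 0.16, edgeR adjusted p 1.00, 95% interval -0.57 to 0.15), with an exact two-sided permutation p of 0.143, the lowest of the 18. Without WT library 413 every WT library lay above every Het Hit 2 library for Bdnf, and the fitted log2 difference was -0.27 (SE 0.18, edgeR adjusted p 1.00), while over all genes these groups then did not overlap for 11.3%. Without Het Hit 2 library 410, the lowest in Bdnf, the difference was -0.13. These values were the lowest and the highest of the 25 alternatives. An antisense gene across the Bdnf locus, Gm45346, had 2 to 14 reads per library on its own strand.

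Of the kinase receptors, Ntrk2 varied least of all members. Its level was 482, 509, 488 and 475 CPM in the WT DMSO libraries 413, 425, 426 and 431. The Het DMSO libraries 409, 411, 420 and 429 had 500, 632, 482 and 476 CPM. The Het Hit 2 libraries 410, 421, 422 and 430 had 521, 478, 427 and 513 CPM. Apart from the high value of library 411 and the low value of library 422, the 3 groups covered nearly the same range. The group means were 489 ± 14.6 CPM in WT DMSO, 522 ± 73.6 CPM in Het DMSO and 485 ± 42.7 CPM in Het Hit 2 (SD, n = 4 each). Its coefficient of variation of 9.71% was above that of only 5.78% of genes. The log2 fold changes were 0.10 (SE 0.13, edgeR adjusted p 0.764), -0.11 (SE 0.13, edgeR adjusted p 0.898) and -0.01 (SE 0.13, edgeR adjusted p 1.00) in the knock-in, compound and remaining-distance comparisons, an order kept for the other receptors. The 95% intervals were -0.18 to 0.37, -0.38 to 0.17 and -0.29 to 0.26. Without library 411 the Het DMSO mean was 486 ± 12.4 CPM (SD, n = 3), and the first log2 fold change was 0.01.

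Ntrk3 had the highest CPM of the members in every library except 411, where Ntrk2 was higher, and it varied more than Ntrk2. Its level was 708, 1069, 1148 and 1270 CPM in the WT DMSO libraries 413, 425, 426 and 431. The Het DMSO libraries 409, 411, 420 and 429 had 825, 422, 1069 and 902 CPM. The Het Hit 2 libraries 410, 421, 422 and 430 had 681, 1090, 777 and 1039 CPM. Library 411 was the lowest, and the remaining Het libraries fell between the lowest and the highest WT values, except library 410, which was just below them. The group means were 1049 ± 242 CPM in WT DMSO, 804 ± 275 CPM in Het DMSO and 897 ± 199 CPM in Het Hit 2 (SD, n = 4 each). The log2 fold changes were -0.38 (SE 0.28, edgeR adjusted p 0.633, 95% interval -0.99 to 0.23), 0.16 (SE 0.28, edgeR adjusted p 0.905, 95% interval -0.45 to 0.77) and -0.23 (SE 0.28, edgeR adjusted p 1.00, 95% interval -0.84 to 0.38). Without library 411 the first was -0.16 and the second -0.08, so the sign of the second depended on that library. The ratio of Ntrk3 to Ntrk2 per kilobase of exon was 0.427 in library 411 and 0.836 to 1.71 in the other 11.

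Ngfr was measured from 50 to 361 reads per library. Its level was 6.53, 7.02, 5.28 and 6.36 CPM in the WT DMSO libraries 413, 425, 426 and 431. The Het DMSO libraries 409, 411, 420 and 429 had 8.87, 2.52, 8.34 and 8.01 CPM. The Het Hit 2 libraries 410, 421, 422 and 430 had 6.43, 8.30, 8.30 and 5.58 CPM. As with Ntf3, the Het DMSO libraries other than 411 lay above every WT library, and library 411 lay below every other library, while the Het Hit 2 libraries reached into both ranges. Over all genes, Het DMSO without library 411 and WT DMSO did not overlap for 7.82%. The group means were 6.30 ± 0.732 CPM in WT DMSO, 6.93 ± 2.96 CPM in Het DMSO and 7.15 ± 1.37 CPM in Het Hit 2 (SD, n = 4 each). The log2 fold changes were 0.14 (SE 0.32, edgeR adjusted p 0.870, 95% interval -0.56 to 0.84), 0.04 (SE 0.32, edgeR adjusted p 0.976, 95% interval -0.66 to 0.75) and 0.19 (SE 0.32, edgeR adjusted p 1.00, 95% interval -0.51 to 0.89). Without library 411 the first became 0.43 (SE 0.18, 95% interval 0.03 to 0.84, edgeR unadjusted p 0.0361, adjusted p 0.620), with an exact two-sided permutation p of 0.0286, the smallest that 3 against 4 libraries allow. The second became -0.26 (SE 0.18, edgeR adjusted p 0.635). The interval of the first crossed 0 again with the sex covariate and without library 411, at 0.40 (SE 0.24, 95% interval -0.12 to 0.93, edgeR adjusted p 0.768). As for Ntf3, that fit rested in effect on the WT libraries without Xist. The interval of the first also crossed 0 without libraries 409 and 411, at 0.37 (SE 0.18, 95% interval -0.04 to 0.77, edgeR adjusted p 0.905).

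Sort1 was highest in libraries 411 and 409. Its level was 216, 193, 180 and 175 CPM in the WT DMSO libraries 413, 425, 426 and 431. The Het DMSO libraries 409, 411, 420 and 429 had 266, 297, 171 and 186 CPM. The Het Hit 2 libraries 410, 421, 422 and 430 had 233, 173, 173 and 184 CPM. The groups overlapped, and in each group 1 or 2 libraries stood above the rest. The group means were 191 ± 18.1 CPM in WT DMSO, 230 ± 61.1 CPM in Het DMSO and 190 ± 28.6 CPM in Het Hit 2 (SD, n = 4 each). The log2 fold changes were 0.27 (SE 0.18, edgeR adjusted p 0.626, 95% interval -0.13 to 0.67), -0.27 (SE 0.18, edgeR adjusted p 0.898, 95% interval -0.67 to 0.13) and -0.0049 (SE 0.18, edgeR adjusted p 1.00, 95% interval -0.40 to 0.39). Without libraries 409 and 411 the first was -0.11 and the second 0.09. The summed level of 8 oligodendrocyte markers was 6685 CPM in library 411, 5577 CPM in 410, 3438 CPM in 413 and 2699 CPM in 409, the libraries with the highest Sort1. Library 429 had a sum of 3504 CPM, above those of 413 and 409, but Sort1 at 186 CPM, and the other 7 libraries had sums of 1302 to 2350 CPM. The part of these cells in the Sort1 levels was not tested.

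**Figure D3:**
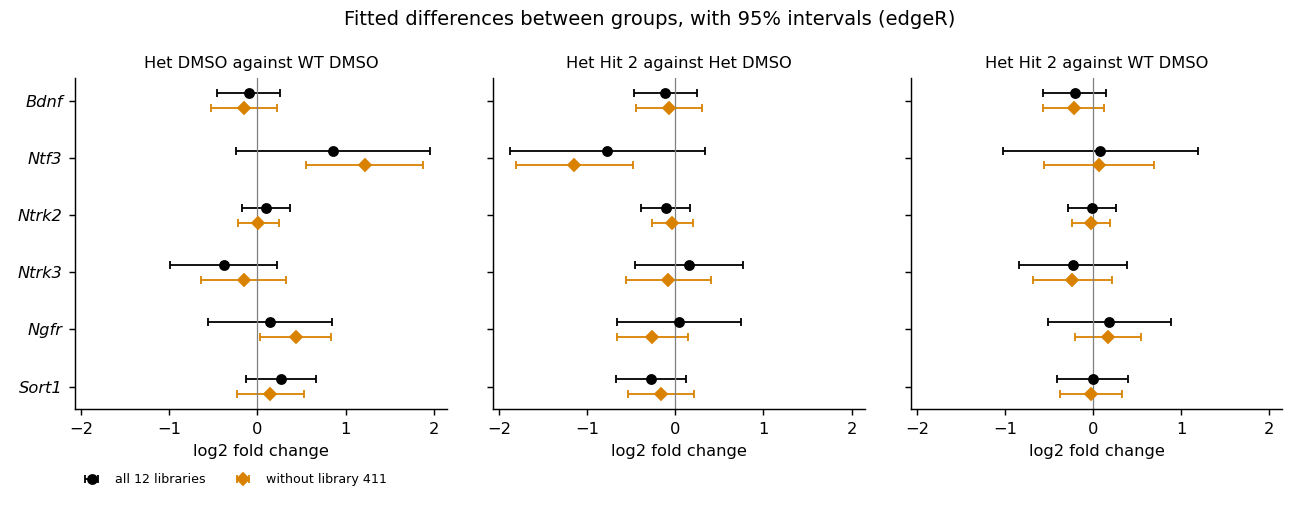
Log2 fold change of each member in the 3 comparisons, with 95% intervals, from the edgeR fit of all 12 libraries (black circles) and of the 11 without library 411 (orange diamonds). With all libraries every interval crosses 0; without library 411 those of Ntf3 in both comparisons with Het DMSO and of Ngfr in the first do not, and none passes the threshold after adjustment over all genes.

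The members moved apart from each other in library 411. Relative to the WT mean, Ntf3, Ntrk3 and Ngfr were lower in that library than in any other, while Ntrk2 and Sort1 were higher than in any other and Bdnf lay within the WT range. The map of members and marker lists by library shows these values beside the markers: in the same library the granule cell and Purkinje cell lists were at their lowest, and the lists for oligodendrocytes, their precursors (195 CPM), microglia (183 CPM) and midbrain and brainstem neurons were at their highest. The dopamine transporter gene Slc6a3 was at 36.2 CPM and the vesicular glutamate transporter gene Slc17a6 at 278 CPM in library 411, with medians of 0.0583 and 15.2 CPM over the 12 libraries. The sum of 6 forebrain neuron markers was 5.10 CPM in library 411 and 64.0 to 133 CPM in the other 11, and Neurod2 of that list had a median of 99.3 CPM over the 12 libraries and 1.97 CPM in library 411. The Purkinje cell sum was 8611 to 9154 CPM in WT DMSO, 1254 to 7677 CPM in Het DMSO and 3940 to 7234 CPM in Het Hit 2, and its part in the member levels was not tested.

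**Figure D4:**
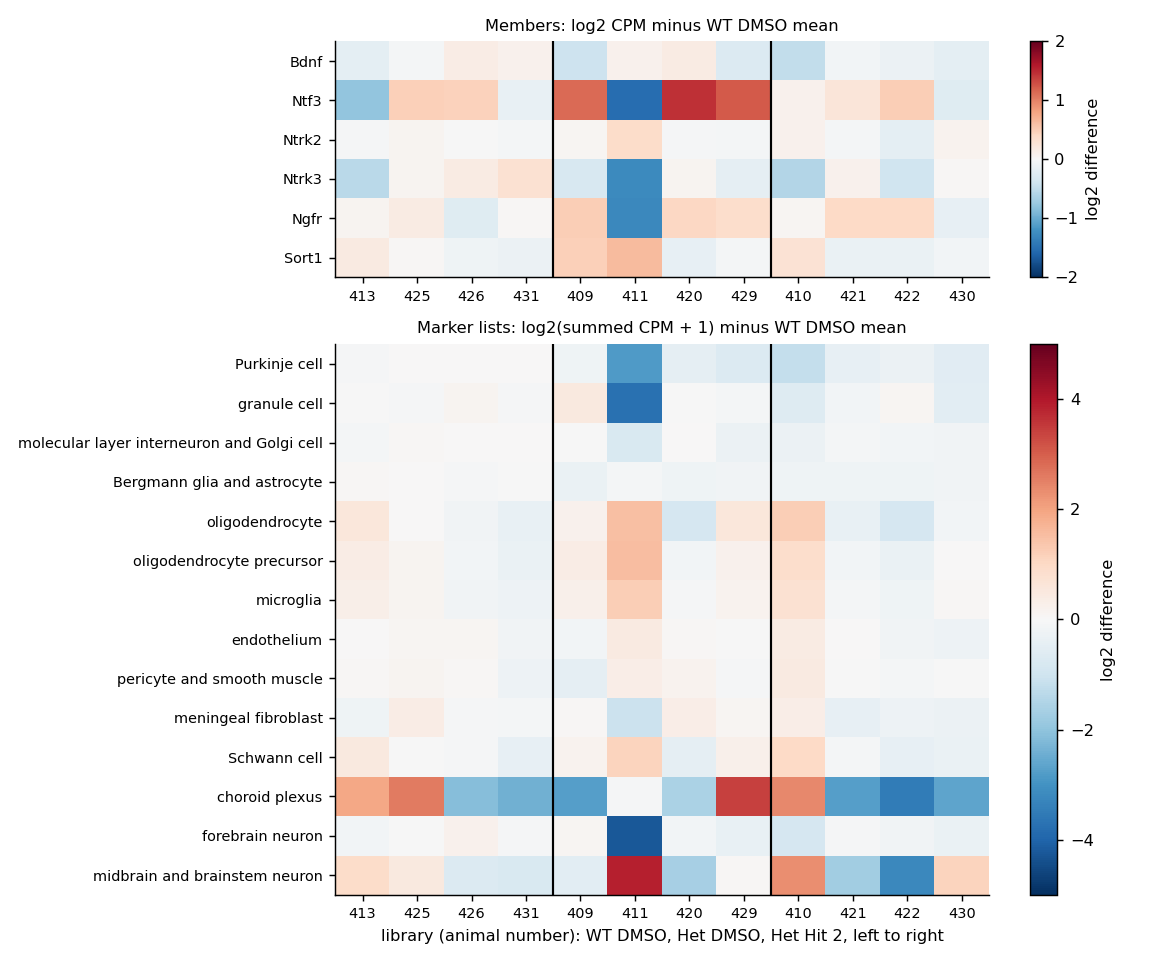
Log2 CPM of each member (upper map) and log2 of the summed CPM plus 1 of each marker list (lower map) in each library, minus the WT DMSO mean; red is higher, blue is lower, and lines separate WT DMSO, Het DMSO and Het Hit 2. The column of library 411 differs from all others in both maps, with Ntf3, Ntrk3, Ngfr and the granule and Purkinje cell lists low and the midbrain and brainstem list high.

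The genes with the most similar pattern were sought by Pearson's r of log2 CPM over the 10 libraries other than 409 and 411, among 12454 genes (12455 for Ntf3) with a mean of at least 5 CPM; these values are descriptions, since the libraries share tissue and groups and the best of many genes is shown. For Ntf3 they were Glcci1 (r = 0.96) and Man2a1 (r = 0.95). Glcci1, whose product is named for its induction by glucocorticoids, also followed Ntf3 over all 12 libraries (r = 0.96), whereas Man2a1, a mannosidase gene of the Golgi, did so less closely (r = 0.49). Glcci1 was at 9.17 to 12.1 CPM in WT DMSO and 10.1 to 11.7 CPM in Het Hit 2, and at 11.97, 6.56, 14.5 and 13.3 CPM in the Het DMSO libraries 409, 411, 420 and 429. The closest genes were Dock4 and Nup205 for Bdnf (both r = 0.96), but over all 12 libraries r was 0.15 and 0.16. For Ntrk2 they were Zfhx4 (0.97, and 0.65 over 12) and Sh3bgrl2 (0.93, and 0.95 over 12), and for Ntrk3 Ldlrad4 (0.96, and 0.84 over 12) and Acrbp (0.95, and 0.85 over 12). Ngfr had the lowest values, with Mllt3 (0.89, and 0.35 over 12) and Eprs (0.88, and 0.12 over 12). Sort1 was closest to Igsf11 (0.99, and 0.65 over 12) and Fa2h (0.98, and 0.87 over 12), the latter encoding an enzyme that makes hydroxylated lipids of myelin.

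Other genes of the neurotrophin pathway were taken from a list of 70 in 5 roles, of which 66 passed the filter, and edgeR called 0 of them in each comparison. At an unadjusted p under 0.05, 4 were higher and 0 lower in the knock-in comparison, 0 in the compound comparison, and 1 higher and 0 lower in the remaining-distance comparison, beside the 7.11%, 1.55% and 1.71% of all genes in either direction. The median log2 fold changes of the 66 were 0.09, -0.12 and 0.03, beside the 0.05, -0.04 and 0.02 of all genes. Among those that did not pass, the ligand gene Ntf5 had 0 to 9 reads per library and the protease gene Mmp3 had 0 to 2.

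The genes with the smallest p in the knock-in comparison were Shc2, Shc3 and Akt1. Shc2 and Shc3 encode adaptors that bind activated Trk receptors, and Akt1 a kinase of the survival pathway downstream. Shc2 was at 56.9 and 54.8 CPM in libraries 409 and 411 and at 25.4 to 35.1 CPM in the other 10, with a log2 fold change of 0.64 in that comparison (SE 0.22, edgeR adjusted p 0.616). Shc3 was at 66.4 and 102 CPM in the same libraries and at 24.1 to 51.5 CPM in the other 10, with 0.98 (SE 0.37, edgeR adjusted p 0.616). Akt1 was at 197 and 165 CPM there and at 98.7 to 132 CPM elsewhere, with 0.44 (SE 0.18, edgeR adjusted p 0.616). All 3 were thus high in the pair of libraries with the lowest limma quality weights, and libraries 420 and 429 of the same group lay within the range of the other groups.

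In the compound comparison the smallest p belonged to Map2k1, a kinase of the MAP kinase cascade (log2 fold change -0.43, SE 0.21), Shc3 (-0.72, SE 0.37) and Shc2 (-0.41, SE 0.22), each with an edgeR adjusted p of 0.898. Map2k1 was at 168 and 121 CPM in libraries 409 and 411 and at 83.9 and 79.0 CPM in 420 and 429, so it too was high in the pair of libraries with the lowest limma quality weights. Without library 411 the log2 fold change of Shc3 was -0.33 in this comparison and 0.57 in the knock-in comparison. The remaining-distance comparison gave Sh2b2, a Trk adaptor gene (0.92, SE 0.39), Plg, the plasminogen gene (0.94, SE 0.51, at a mean of 0.414 and 0.224 CPM), and Pcsk6, which encodes a proprotein convertase (-0.45, SE 0.30), each with an edgeR adjusted p of 1.00. Sh2b2 was at 17.1 CPM in library 430 and at 5.91 to 7.99 CPM in the other 3 Het Hit 2 libraries, so library 430 stood above the rest of its group. Pcsk6 was at 104 to 114 CPM in WT DMSO and at 56.1 to 91.8 CPM in Het Hit 2, without overlap. It was 1 of 10 of the 66 pathway genes (15.2%) whose groups did not overlap in the remaining-distance comparison, where 6.32% of all genes lacked overlap, and 0 of 66 lacked it in each of the other comparisons (4.39% and 1.03% of all genes). Cadps2, which encodes a protein for the release of dense-core vesicles that hold neurotrophins, was at 65.7 CPM in library 411 and at 301 to 543 CPM in the others. Among the relatives of Sort1, Sorcs1 and Sorcs2 were highest in library 411 (73.1 and 83.6 CPM) and Sorl1 lowest there (457 CPM, against 870 to 1968 CPM).

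**Figure D5:**
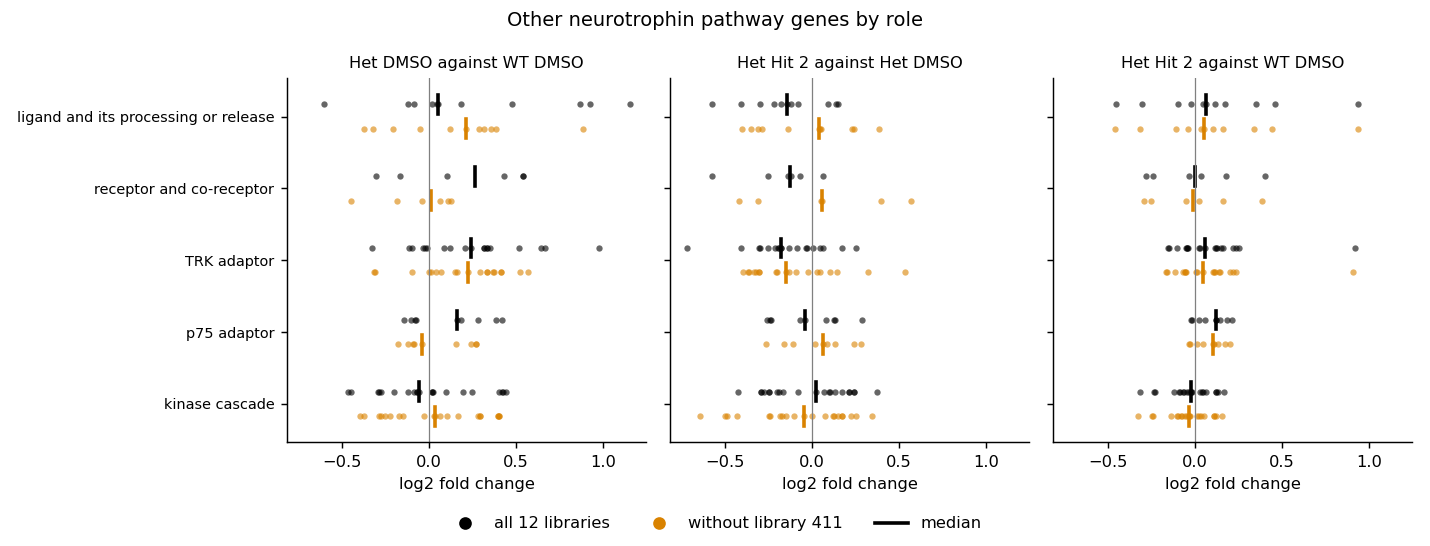
Log2 fold change of the 66 other pathway genes by role in the 3 comparisons, with all 12 libraries (black) and without library 411 (orange); each point is 1 gene and the bar its role's median. The medians of the roles lie between -0.18 and 0.27, and those of the receptors and p75 adaptors in the knock-in comparison move from 0.27 and 0.16 to 0.01 and -0.04 without library 411.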

How the data were processed

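The deposited values are raw read counts per gene, 1 table per library, in STAR's layout per the file headers, and the authors normalized none of them. STAR 2.7.10a, FastQC 0.11.9 and the build GRCm39 are named per the submitters' processing notes, while the annotation release is not given in the sources used here. The labels' protocols describe strand-specific libraries after removal of ribosomal RNA, with 500 ng of input and 13 amplification cycles. Counts on the opposite strand were used, since 5.21% to 6.47% of gene reads lay on the other strand. Reads outside genes (44.7% to 54.6% of a library), multimapping, unmapped and ambiguous reads stayed out of library sizes and tests. Of 55401 gene identifiers, 55141 matched GENCODE M21 (GRCm38), which gave symbols, lengths and transcripts, and upstream windows came from RefSeq (GRCm38.p6). No gene coordinate of the authors' build was used.

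All 12 libraries entered 1 quasi-likelihood fit in edgeR 4.0.16 (R 4.3.3) after filterByExpr (19378 genes) and TMM scaling, two-sided, with Benjamini-Hochberg adjustment over all genes and a threshold of 0.05. Standard errors came from the F statistic. Exact permutation tests ran on log2 CPM (prior count 2) over the 70 assignments of 4 against 4 libraries, 35 of 3 against 4 and 15 of 2 against 4. Replicates are separate mice, and sequencing runs are not named. The members, pathway and marker lists were chosen with earlier results of these data known. All 6 members were named in every comparison. Of the pathway genes, those past the threshold or else the 3 with the smallest p were named, and of genes with a similar pattern the 2 with the highest r. Some pathway and marker genes are not reported here. Cadps2, Sorcs1, Sorcs2 and Sorl1 were named after their values were seen. Alternatives were DESeq2 1.42.0, limma 3.58.1 with quality weights, RLE factors, other filters, unstranded counts, fits of only the groups compared, a sex covariate, 1 surrogate variable (sva 3.50.0) and leaving out libraries. Leaving out libraries 410 and 411, leaving out WT libraries 425 and 426, and the sex covariate without library 411 were chosen after seeing the data.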

Additional observations from a re-analysis of the deposited data

Results flagged for a closer look

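Within each group of 4 libraries, the 6 members and 14 marker sums were searched for a library far from the other 3, by the gap to its nearest neighbour over the whole range (Dixon's 95% critical value, 0.829). Chance flags about 1 in 20 groups, or 3 of the 60 checks made, and 8 were found. The checks share libraries and are not independent, so 1 unusual library can raise several flags. All of the flags fell in libraries 411, 410 and 429. Of the 18 checks on members, 2 were found, both in library 411 of Het DMSO: Ntrk2 stood at 631.73 CPM, against 476 to 500 CPM in the other 3, and Ngfr at 2.52 CPM, against 8.01 to 8.87 CPM. In the same library the midbrain and brainstem neuron marker sum was 386.93 CPM, against 7.28 to 26.5 CPM. Library 429 of Het DMSO had a choroid plexus sum of 1913.3 CPM, against 25.3 to 172 CPM. Library 410 of Het Hit 2 had high sums of choroid plexus (940.49 CPM, against 14.8 to 27.8 CPM), pericyte and smooth muscle (218.3 CPM, against 148 to 157 CPM), meningeal fibroblast (111.64 CPM, against 66.4 to 74.0 CPM) and Schwann cell markers (84.4 CPM, against 31.6 to 38.5 CPM). Of the members, Bdnf was at its lowest in library 410.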

How the results depend on the processing

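In all 25 alternatives edgeR, DESeq2 or limma called 0 of 6 members in each comparison, while the share of all genes called ranged from 0% to 0.506% in Het DMSO against WT DMSO and from 0% to 1.14% in Het Hit 2 against WT DMSO (the highest with limma), and was 0% in Het Hit 2 against Het DMSO. Of the log2 fold changes under those alternatives, 422 kept their sign and 28 changed it, none of them called. The count of member and comparison pairings without overlap, 0 of 18, became 3 without libraries 409 and 411 and 3 without libraries 410 and 411, and ranged from 0 to 3 when single libraries were left out. With either pair left out the 3 were Ntf3 in both comparisons with Het DMSO and Ngfr in Het DMSO against WT DMSO. Over all genes the share without overlap also rose where a group lost libraries. It was 4.39%, 1.03% and 6.32% in the 3 comparisons with all libraries, 17.3%, 12% and 6.08% without libraries 409 and 411, and 7.78%, 7.86% and 9.95% without libraries 410 and 411.

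Signs changed as follows. With limma's quality weights, Ntrk2 (-0.0244) and Sort1 (-0.0649) in Het DMSO against WT DMSO and Ngfr (-0.0622) in Het Hit 2 against Het DMSO did so. Without libraries 409 and 411, Ntrk2 (-0.0387) and Sort1 (-0.1072) did in the first comparison, and Ntrk2 (0.0133), Ntrk3 (-0.1382), Ngfr (-0.1909) and Sort1 (0.0892) in the second. Without libraries 410 and 411, Bdnf (0.0175) and Ngfr (-0.209) did in the second. With the sex covariate and without library 411, Ntrk3 (-0.081) and Ngfr (-0.2607) did in the second and Ntrk2 (0.006) in Het Hit 2 against WT DMSO. In that comparison Ntrk2 also changed with the sex covariate (0.0171) and without WT libraries 425 and 426 (0.0147). With single libraries left out, Ngfr ranged from -0.0042 to 0.435 in the first comparison, and in the second Ntrk3 ranged from -0.081 to 0.3235 and Ngfr from -0.2606 to 0.1849. In Het Hit 2 against WT DMSO, Ntf3 ranged from -0.1242 to 0.2454, Ntrk2 from -0.0571 to 0.042 and Sort1 from -0.1236 to 0.0567. The cause was not tested.

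No paired analysis was possible because the animal numbers do not recur between groups. Ntf3, with 16 to 221 reads per library, is the member most limited by depth, and intervals from counts cover counting error only.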
